A study of Mus musculus with 13 samples.

Results

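The genes described here are the 8 that encode the ubiquitous actins, the main tubulins and a pair of actin-binding proteins, namely Actb, Actg1, Tuba1a, Tuba1b, Tuba1c, Tubb5, Cfl1 and Pfn1. They were chosen by symbol out of 22367 protein-coding genes in the mm9 annotation (GENCODE M1), with earlier results of these data known, among them RNA polymerase II (PolII) peaks at Actg1 and Tuba1c. Counts of these 8 genes over the lists are therefore a description and not a test.

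The material was the murine hepatoma line Hepa 1-6, profiled by ChIP-seq, a method that sequences the DNA held by an antibody. Standard cultures gave the profiles of KAP1, a corepressor encoded by Trim28, of the histone marks of active regulatory DNA (H3K27ac and H3K4me1) and of a mark of silent chromatin (H3K9me3). Cells transduced 5 days before fixation (the labels also speak of transfection) gave the profiles of PolII and PolIII, either with a hairpin against KAP1 (Kap1 KD) or with a control that the labels call a control hairpin and the study's methods an empty vector. Of 13 samples, 8 have a list of peaks or regions, each list comes from 1 library, and the 5 inputs were not analysed here. No value has a replicate, the sequencing depth of the lists is unknown, and no knockdown efficiency was computed. As a check of the cell type, 8 liver marker genes were looked up: H3K27ac lay over the promoter of 4 (Alb, Afp, Fgb and Trf), PolII over none in the control list and over 1 (Trf) in the Kap1 KD list. Of all protein-coding genes, 20.0% had H3K27ac over the promoter, 13.1% control PolII and 23.3% Kap1 KD PolII. The markers thus stood above the share of all genes in H3K27ac, while PolII counts of 0 and 1 among 8 genes are too small to set against these shares. Numbers that are absent from the lists, explained further on, touched 1 of the 8 markers in each PolII list (Ttr in the control and Apoa2 under Kap1 KD).

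Actin monomers assemble into filaments that give a cell its shape and drive its movement. Profilin feeds monomers to growing filament ends and cofilin severs old filaments. Dimers of α- and β-tubulin build microtubules. Mammalian genomes carry many processed pseudogenes of the actin and tubulin genes, so a part of their sequence recurs elsewhere in the genome. The actin genes are classical targets of the serum response factor, which binds the CArG box, and this factor is held in check by monomeric actin through its coactivators.

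A promoter here is the annotated 5′ end with 250 bp on either side. The stretches just upstream of the 5′ end are shown for Actg1 and the α-tubulin genes, since these are the 4 genes with no listed control PolII. Each line holds the 130 bases of mm9 that precede the 5′ end, read 5′ to 3′ on the strand of the gene, and the capitals mark matches on either strand to a CArG box, to the TATA element (TATAAA), to the CCAAT box or to GGGCGG, the GC box.
Actg1, chr11:120209857-120209986, minus strand: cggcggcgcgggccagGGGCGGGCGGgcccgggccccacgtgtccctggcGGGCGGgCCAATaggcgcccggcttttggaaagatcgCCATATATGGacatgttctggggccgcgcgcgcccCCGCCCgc
Tuba1a, chr15:98783983-98784112, minus strand: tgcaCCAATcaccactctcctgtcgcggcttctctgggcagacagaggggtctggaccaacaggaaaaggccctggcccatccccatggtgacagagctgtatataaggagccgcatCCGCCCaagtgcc
Tuba1b, chr15:98764997-98765126, minus strand: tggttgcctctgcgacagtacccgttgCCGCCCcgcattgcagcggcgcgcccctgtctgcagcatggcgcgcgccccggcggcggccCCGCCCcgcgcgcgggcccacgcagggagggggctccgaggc
Tuba1c, chr15:98860192-98860321, plus strand: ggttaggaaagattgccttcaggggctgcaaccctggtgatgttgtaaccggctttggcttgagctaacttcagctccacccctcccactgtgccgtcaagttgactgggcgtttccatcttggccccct

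Motifs were searched in the 250 bases upstream of 7 of the genes, all but Actb. A CArG box was found upstream of Actg1, 43 to 34 bases before the 5′ end (CCATATATGG), and at none of the other 6. Over all protein-coding genes 1.34% of such 250-base windows held one, and so did 1.22% of the 1721 windows of genes with both KAP1 and H3K27ac over the promoter. The Actg1 window also held the CCAAT box, upstream of the CArG box at bases 73 to 69. CCAAT was found in 6 of the 7 windows, all but that of Pfn1, against 35.0% of all promoters and 32.4% of those with KAP1 and H3K27ac. GGGCGG was found in 5, against 39.6% and 53.5%, and Actg1 held 6 matches of it, a pair of which overlap. TATAAA, searched as this exact string, was found in none, against 12.3% and 6.22%. Looser forms of the TATA element were not searched, and the printed Tuba1a sequence holds the similar stretch tatataag, so the result does not mean that all 7 lack such an element. The Actg1 window was the richest in G and C (79.2%) and Tubb5 the poorest (48.4%), with a median of 54.0% over all genes. A match is a run of letters and not a measured binding site.

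KAP1 and H3K27ac were listed over the promoters of all 8 genes, H3K4me1 over 5 and H3K9me3 over none. The histone marks reached into the edges of the promoters, H3K27ac over 101 to 275 of their 501 bp, and when at least 50% of the promoter had to be covered, 7 genes had KAP1, 1 had H3K27ac and 0 had H3K4me1, against 14.9%, 4.46% and 2.75% of all protein-coding genes at that overlap. At 1 bp of overlap and among all protein-coding genes 15.7% had KAP1 over the promoter, 20.0% had H3K27ac, 11.9% had H3K4me1 and 5.24% had H3K9me3. PolII was listed over 4 of the 8 promoters in the control (Actb, Tubb5, Cfl1 and Pfn1), against 13.1% of all genes. Under Kap1 KD it was listed over 7, all but Tuba1b, against 23.3%. PolIII was listed over none of the 8 in either condition, against 0.344% of all genes for the control list and 0.134% for the Kap1 KD list, and no PolIII peak lay within 10 kb of any of them. The Kap1 KD list of PolII is longer than the control list (12862 against 5015), and since the depth of neither is known, a gene in 1 list only cannot be read as a gain.

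**Figure D1:**
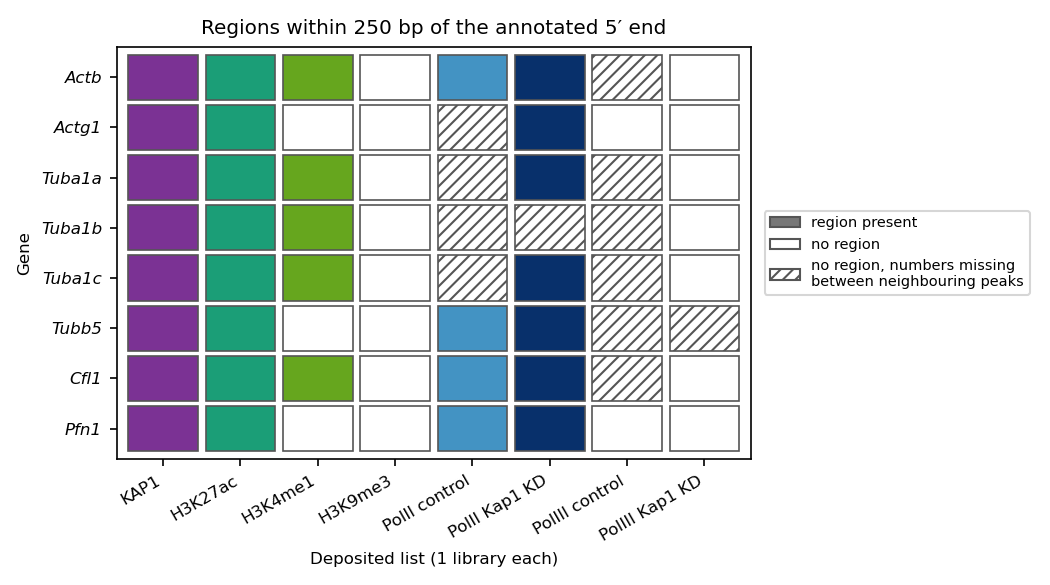
Each square is 1 gene (rows) in 1 deposited list (columns), filled where a region lies within 250 bp of the 5′ end and hatched where none does and peak numbers are missing between the neighbouring peaks. KAP1 and H3K27ac fill all 8 rows, control PolII fills 4, and the other 4 of that column are hatched. No PolIII peak follows Actg1 on its chromosome, so missing numbers were not counted there.

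Genes with KAP1 and H3K27ac over the same promoter are a nearer comparison than all genes. There were 1721 of them. H3K4me1 was listed over 29.9% of these promoters, control PolII over 59.5% and Kap1 KD PolII over 83.4%, and 25.9% had PolII in the Kap1 KD list only. Of the 8 genes, 3 were of this last kind (Actg1, Tuba1a and Tuba1c).

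Actb encodes β-actin, and lies at chr5:143664794-143668433 on the minus strand. Its KAP1 peak was 3240 bp wide, from 516 bp upstream to 2723 bp downstream of the 5′ end, with a score of 460, rank 1214 of 12470. A further KAP1 peak with a score of 93.8 crossed the 3′ end, and together they covered 82.4% of the gene. The control PolII peak was 10840 bp wide, with rank 24 of 5015 by score, and ran 6660 bp past the 3′ end. The Kap1 KD peak was 13480 bp wide, with rank 23 of 12862, and ran 9454 bp past it. Both conditions thus held Actb among their highest-ranking peaks. The promoter of the next gene, Fbxl18, lies 7694 bp beyond the 3′ end of Actb, where the control list had a separate peak of 860 bp while the Kap1 KD peak of Actb included it, so the wider Kap1 KD peak takes in the 5′ end of Fbxl18.

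Actg1 encodes γ-actin, the other actin of non-muscle cells, at chr11:120207004-120209856 on the minus strand. Its KAP1 peak of 4300 bp (score 249, rank 2306) covered 100% of the gene. H3K27ac covered only 7.26% of it. The control PolII list had no peak in the gene or within 10 kb, while under Kap1 KD a peak of 7284 bp (rank 133) covered 100% of the gene and ran 2118 bp upstream and 2313 bp past the 3′ end. The 5′ end of 0610009L18Rik lies 136 bp upstream on the opposite strand, and this peak covered 78.9% of that gene as well, so PolII there cannot be assigned to either. The paper plots a PolII pausing index for Actg1, taken as a housekeeping gene, in both control and Kap1 KD cells. That index is the ratio of PolII at the start to PolII over the gene body. The missing control peak can therefore not be read as a lack of PolII at Actg1. The coding sequences of Actb and Actg1 were identical at 997 of 1125 bases (88.6%), and the genes differed in 2 of the 8 lists at the promoter, H3K4me1 and control PolII. With 1000 bp on either side both had H3K4me1, and a control PolII number is absent around Actg1, as explained further on.

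Actg1 was the only one of the 8 genes with an H3K9me3 region inside it. The region, at chr11:120207019-120207675, was 657 bp wide, lay at the 3′ end of the gene and covered 23.0% of it. Of the 8861 protein-coding genes up to 10 kb long, 12.0% had H3K9me3 in the gene, and 29.2% had it in the gene or within 10 kb. Of the 558 windows of 100 bases in this region, 556 (99.6%) occurred unchanged elsewhere in mm9, some up to 6 times. Reads from those copies and from Actg1 cannot be told apart over such windows, and which of them gave the H3K9me3 signal was not tested. The other H3K9me3 regions lay outside the genes, at Actg1, Tuba1a, Tuba1b and Tuba1c, and there was none within 10 kb of Actb, Tubb5, Cfl1 or Pfn1.

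**Figure D2:**
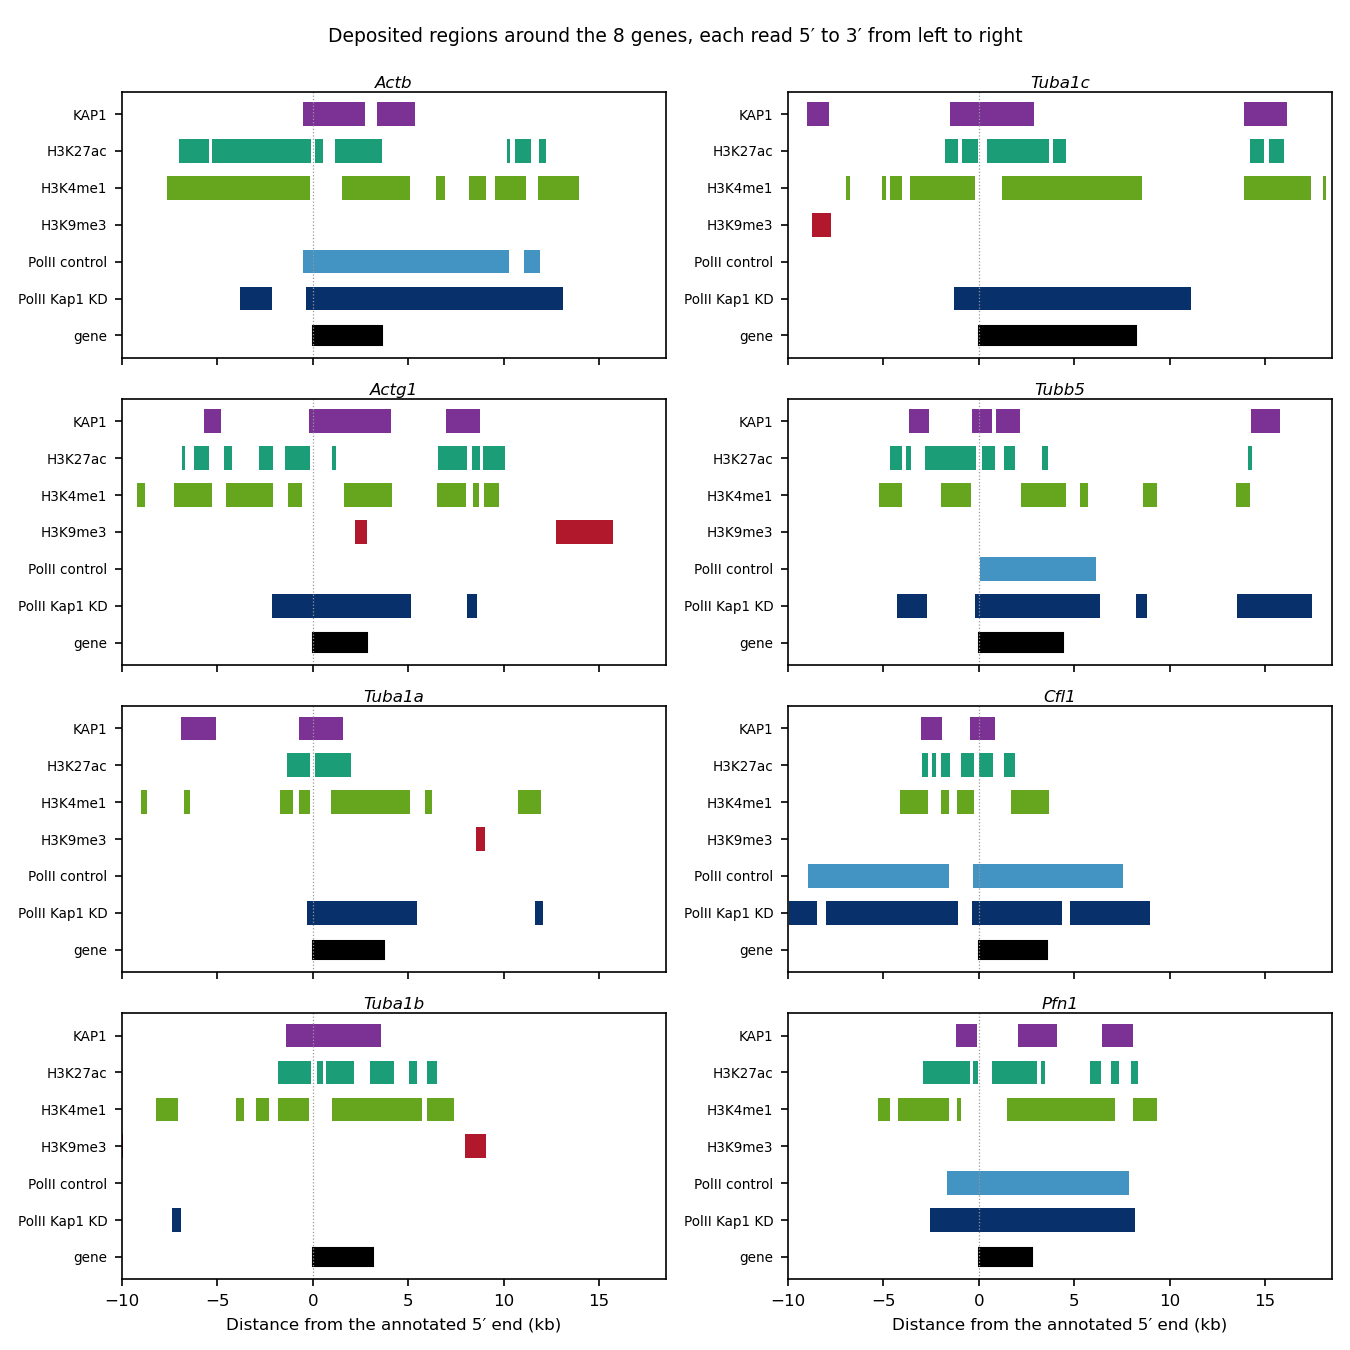
Each panel shows, for 1 gene, the regions of 6 lists that touch the gene or the 10 kb to each side, against the distance from the 5′ end in kb, with the gene as a black bar. PolII peaks run from the promoter past the 3′ end wherever a gene has one, and the H3K27ac and H3K4me1 regions part around the 5′ end.

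The α-tubulin genes lie within 126.7 kb of chromosome 15 together with their flanks of 10 kb. Tuba1b is at chr15:98761856-98764996 and Tuba1a at chr15:98780272-98783982, both on the minus strand, with 5′ ends 19.0 kb apart. Tuba1c is at chr15:98860322-98868536 on the plus strand, 95.3 kb from the 5′ end of Tuba1b. Their coding sequences were close to identical, at 98.3% between Tuba1a and Tuba1b, 97.1% between Tuba1a and Tuba1c and 97.9% between Tuba1b and Tuba1c. The 3 promoters had the same 4 entries in the KAP1 and histone lists, with KAP1, H3K27ac and H3K4me1 present and H3K9me3 absent. The KAP1 peaks were 4959 bp wide at Tuba1b (score 331, rank 1692), 4407 bp at Tuba1c (score 244, rank 2357) and 2308 bp at Tuba1a (score 103, rank 6166). The peak of Tuba1b was the 65th widest of the KAP1 list and covered 100% of the gene, while that of Tuba1c covered 35.4% and that of Tuba1a 43.1%.

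In the PolII lists Tuba1a and Tuba1c had the same entries, and Tuba1b differed from them in the Kap1 KD list, where a peak number is absent around it. None had a control PolII peak over the promoter or the gene. Under Kap1 KD, Tuba1c had a peak of 12446 bp (score 1294, rank 63 of 12862) that covered 100% of the gene and ran 2911 bp past its 3′ end. Tuba1a had one of 5723 bp (score 548, rank 265), which ran 1719 bp past. Tuba1b had none, and the nearest Kap1 KD peak was a weak one of 439 bp (rank 9285) 6922 bp upstream of its 5′ end. Tuba1b was thus the member with the broadest KAP1 peak and no listed PolII, although a peak number is absent around it in both lists.

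**Figure D3:**
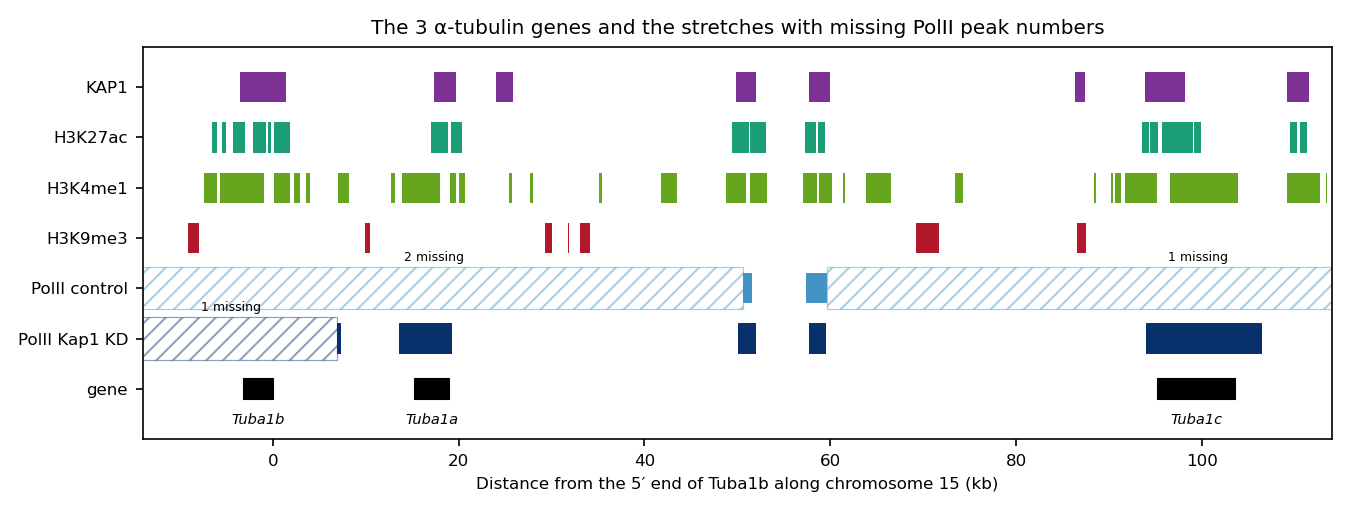
Regions of 6 lists across the α-tubulin genes, against the distance from the 5′ end of Tuba1b in kb along the chromosome, with genes as black bars and hatching over stretches between neighbouring PolII peaks where numbers are missing. The hatched stretches hold all 3 genes in the control and only Tuba1b under Kap1 KD.

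Tubb5 encodes the widely expressed β-tubulin and lies at chr17:35970871-35975251 on the minus strand. It had the lowest KAP1 score of the 8 promoters (67.3, rank 9483, 1052 bp wide), with a further peak in the gene at 72.1. Its PolII peak was 6076 bp wide in the control (rank 159) and 6546 bp under Kap1 KD (rank 216), and covered 98.9% and 100% of the gene. The control peak began 48 bp downstream of the 5′ end and the Kap1 KD peak 210 bp upstream. Both ran past the 3′ end, by 1743 and 1955 bp, into the 3′ end of Flot1, which is transcribed towards Tubb5.

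Cfl1 encodes cofilin and lies at chr19:5490485-5494029 on the plus strand. Its KAP1 peak of 1278 bp had a score of 118 (rank 5300). PolII covered 100% of the gene in both conditions, with a peak of 7862 bp in the control (rank 147) and of 4709 bp under Kap1 KD (rank 344). The shorter Kap1 KD peak does not mean a shorter stretch with PolII. A second Kap1 KD peak of 4195 bp followed after 406 bp and ended 5408 bp past the 3′ end of Cfl1, where the control peak had ended 4011 bp past it. Both reached into Snx32, transcribed towards Cfl1.

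Pfn1 encodes profilin and lies at chr11:70465352-70468146 on the minus strand. It was the only one of the 8 genes whose KAP1 promoter peak (1107 bp, score 96.1, rank 6607) did not include the 5′ end, since it stopped 94 bp upstream. Over all genes with KAP1 on the promoter, the 5′ end itself lay inside a KAP1 peak at 94.3%. PolII covered 100% of Pfn1 in both conditions, with a peak of 9570 bp in the control (rank 73 of 5015) and of 10756 bp under Kap1 KD (rank 66 of 12862). These peaks ran 5094 and 5404 bp past the 3′ end and covered 100% of Rnf167, which is transcribed towards Pfn1. They also took in the 5′ end of Slc25a11, so the length cannot be assigned to Pfn1 alone.

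PolII covered at least 50% of the gene at the same 4 genes in the control and the same 7 under Kap1 KD that had it over the promoter. Among all protein-coding genes, 1.69% were covered to this extent in the control and 2.8% under Kap1 KD. Across all genes with PolII over the promoter, the median peak width was 945 bp in the control and 1010 bp under Kap1 KD. The 4 control peaks of these genes were 6076 to 10840 bp wide and the 7 Kap1 KD peaks 4709 to 13480 bp, all above the 90th percentile of those promoters (3768 and 3825 bp). All 11 reached past the 3′ end, whereas over all genes 8.09% of control promoter peaks and 6.43% of Kap1 KD ones did. Both the covered share and the reach past the 3′ end depend on gene length. The 8 genes are 2795 to 8215 bp long, whereas the shares are over genes of any length, and none was computed for short genes.

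H3K27ac was absent from the base at the 5′ end of all 8 genes, as at 80.0% of the 4464 genes with H3K27ac over the promoter. The stretch without the mark was 226 bp long at Actb, 259 bp at Cfl1, 300 bp at Tubb5, 301 bp at Tuba1a and 304 bp at Tuba1b. It was longer at Tuba1c (457 bp), Pfn1 (727 bp) and Actg1 (1172 bp). Over the 3572 genes with such a stretch the median was 683 bp. The stretch without H3K4me1 was the longer at each of the 8 genes, from 1088 bp at Tuba1a to 2614 bp at Tubb5. The same order held at 77.2% of the 3468 genes where neither mark covered the 5′ end. The CArG box of Actg1 lay inside both of its stretches and inside the KAP1 peak.

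The peaks of the PolII and PolIII lists carry running numbers in genome order, and some numbers are absent: 31.3% in the control PolII list, 22.6% in the Kap1 KD PolII list, and 30.4% and 55.0% in the PolIII lists. Why they are absent is not given in the sources used here. Where a number is absent between the peaks to each side of a gene, the lack of a peak cannot be read as a lack of PolII. All 4 genes without a control PolII peak lay in such an interval. Among all protein-coding genes without a control peak over the promoter this held for 21.9%, and among the 697 of them with KAP1 and H3K27ac over the promoter for 14.9%.

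The number 4554 is absent around Actg1, between peaks that stand 61.2 kb apart. That interval holds 3 protein-coding 5′ ends, of which Actg1 and 0610009L18Rik had H3K27ac. The numbers 5771 and 5772 are absent between peaks 66.6 kb apart, where the only protein-coding 5′ ends are those of Tuba1b and Tuba1a. The number 5775 is absent around Tuba1c, in 79.9 kb with 3 such 5′ ends, of which only that of Tuba1c had H3K27ac. Under Kap1 KD, number 13428 is absent in an interval of 22.9 kb whose only protein-coding 5′ end is that of Tuba1b, and the share of all genes without a Kap1 KD peak that lay in such an interval was 14.7%. The 5 numbers were looked up around members with no listed peak, so their place beside such members was given. The positions of the absent peaks are unknown. No number was absent beside any of the 11 promoter peaks that are listed, but the share for listed promoter peaks of all genes was not computed. For PolIII in the control, 6 of the 7 genes with peaks on both sides lay in an interval with absent numbers, and under Kap1 KD 1 of 7, but these intervals span megabases and bear little on a single gene.

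The genes without a control PolII peak were also those with copied sequence. Of all 100-base windows of the gene, 47.5% occurred unchanged elsewhere in mm9 for Actg1, 40.5% for Tuba1b, 24.4% for Tuba1a and 13.9% for Tuba1c. The share was 0.551% for Cfl1 and 0 for Actb, Tubb5 and Pfn1, so the 2 sets of 4 genes did not overlap. For Actg1 all 1309 copied windows had their copies outside the 8 genes. For Tuba1c all 1131 were shared with Tuba1a or Tuba1b, while 149 of 882 in Tuba1a and 245 of 1231 in Tuba1b had copies only outside the 8 genes. The promoters themselves were nearly free of copies, with 1.74% of windows at Tuba1b and 0 at the other 7.

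**Figure D4:**
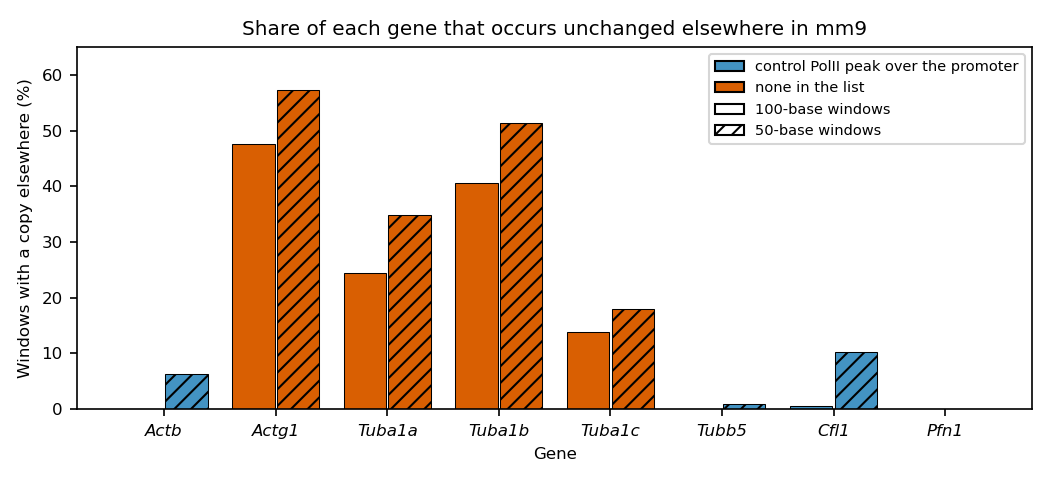
Bars give the share of windows of each gene (in percent) that occur unchanged elsewhere in mm9 on either strand, for windows of 100 and 50 bases, with colour for whether the control PolII list has a peak over the promoter. With windows of 100 bases the 4 genes without a peak stand between 13.9% and 47.5% and the other 4 at 0.551% or less.

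The same measure was then taken, after these values were seen, in 543 other genes up to 10 kb long with KAP1 and H3K27ac over the promoter. At least 10% of the windows had a copy in 10.5% of the 332 genes with a control PolII peak over the promoter and in 3.32% of the 211 without one. The share was higher among genes with listed PolII, but it rests on 35 and 7 genes and on a cut of 10% set after the values of the 8 were seen. Of the genes without a peak, the share was 6.9% of the 29 in intervals with absent numbers and 2.76% of the 181 in intervals with none, and 1 gene had no peak to one side. Whether the copies bear on the lack of control PolII at the 4 members was not tested.

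The wider actin and tubulin pathway was taken as 79 other genes. KAP1 lay over the promoter of 24 (30.4%), H3K27ac over 27 (34.2%), H3K4me1 over 10 (12.7%) and H3K9me3 over 2 (2.53%). PolII was listed over 25 (31.6%) in the control and 40 (50.6%) under Kap1 KD, with 16 in the Kap1 KD list only and 1 in the control list only. PolIII was over none. The 8 genes thus stood above this wider set in every list except H3K9me3 and PolIII, although both were chosen with earlier results known. These counts depend on the promoter width, since with 1000 bp on either side H3K27ac lay over 49 and H3K4me1 over 51 of the 79 genes, and both lay over all 8, against 35.2% and 37.1% of all genes at that width.

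By group, the other 5 actins, which are those of muscle and an intronless relative, had no region of any list over the promoter, though control PolII numbers are absent around 3 of them (Acta1, Acta2 and Actbl2). Of the other 16 tubulins, 3 had KAP1 (18.8%, against 15.7% of all genes), 2 had H3K9me3, and PolII was over 4 in the control and 6 under Kap1 KD. Control PolII numbers are absent around Tuba3b, Tuba8, Tubal3, Tubb2b and Tubb3, and Kap1 KD numbers around the last pair. Of 30 genes of actin assembly and turnover, 13 had KAP1, and PolII was over 9 in the control list and 17 in the Kap1 KD list, where the shares of all genes were 13.1% and 23.3%. In this group control PolII numbers are absent around Tmsb4x, Wdr1 and Twf2, and Kap1 KD numbers around Twf2. Of 13 genes of the CCT chaperonin, which folds actin and tubulin, and of the tubulin cofactors, 6 had KAP1, and PolII was over 8 in the control and 9 under Kap1 KD. Of 15 genes of the serum response factor axis and its actin-binding targets, 2 had KAP1, and PolII was over 4 and 8. Srf itself, the gene of that factor, had PolII under Kap1 KD only, over 1.56% of its length.

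**Figure D5:**
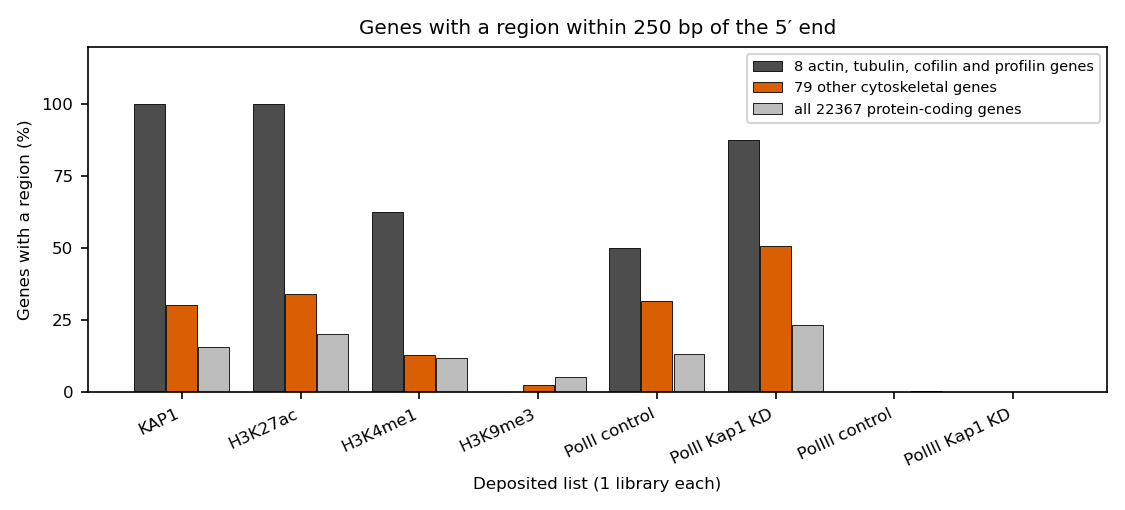
Bars give the percent of genes with a region of each list within 250 bp of the 5′ end, for the 8 genes, the 79 other cytoskeletal genes and all 22367 protein-coding genes. KAP1 and H3K27ac are over all 8 genes against 30.4% and 34.2% of the wider set and 15.7% and 20.0% of all genes.

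Likeness between genes was taken as the number of the 8 lists that agree on presence or absence over the promoter. Cfl1 had the pattern of Actb in all 8 lists, although H3K4me1 covered only 3 bp of its promoter, against 98 bp at Actb. Among the 79 other genes, Cct4, a subunit of the CCT chaperonin, had the pattern of Actb in all 8 lists, and Tubg1, the γ-tubulin that nucleates microtubules, had that of Actg1. Of all protein-coding genes 1.18% had the pattern of Actb and 1.4% that of Actg1. The lists of PolIII held none of these promoters, so agreement there was given. The last likeness includes the lack of control PolII, which at Actg1 stands beside an absent number and at Tubg1 does not. They differed from the actins in extent, since PolII covered 6.77% of Cct4 in control cells, 7.06% of it under Kap1 KD and 5.41% of Tubg1 under Kap1 KD, against 100% of Actb and Actg1 in the lists where these have a peak. The covered share also depends on gene length, and Cct4 and Tubg1 are longer genes than Actb and Actg1.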

How the data were processed

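Per the labels and the study's methods, reads were mapped with Bowtie to mm9, KAP1 and PolII peaks were called with MACS against input and histone mark regions with ChIP-Part. The caller for PolIII, the options and the reason for absent peak numbers are not given in the sources used here. The deposited lists hold region positions. The KAP1, PolII and PolIII lists also carry a score set by the authors, used here only to rank peaks within a list. They hold no counts, so depth and precision are unknown, and with 1 library per group no test was made.

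Starts were converted to count from 1, and 0 regions lay past a chromosome end of mm9. A region was called at 1 bp of overlap. Exact copies of windows were counted on both strands over 211 reference sequences, after a test on simulated data (Python 3.11.15, numba 0.67.0). Coding sequences of the lowest-numbered transcripts were aligned with Biopython 1.88. The 8 members and all gene lists were chosen with earlier results of these data known. Named besides them were neighbours within 10 kb that share a PolII peak, Srf, and genes with the pattern of Actb or Actg1 in 6 lists. Liver markers and other cytoskeletal genes beside absent numbers were named as well. The alternatives were other promoter widths and starts, overlaps, gene shares, shorter lists and shorter windows. Liver markers, the shares of all genes at other overlaps and widths, in H3K9me3 and in the patterns of Actb and Actg1, and the copied share of 543 other genes were added after the data were seen. The upstream sequence of Actb is not reported here.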

Additional observations from a re-analysis of the deposited data

How the results depend on the processing

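Of 64 values recomputed with another setting, 18 were 0 under both settings and show nothing, and 38 of the other 46 stayed within 1.5 times of the value reported. With an overlap of at least 50% of the promoter window, H3K27ac was over 1 of the 8 promoters and H3K4me1 over 0 (4.46% and 2.75% of all genes). With 1000 bp to each side, H3K4me1 was over 8, and of the 79 other genes H3K27ac was over 49 and H3K4me1 over 51 (35.2% and 37.1% of all genes). With windows of 50 bases, the copied share was 6.38% for Actb, 0.831% for Tubb5 and 10.2% for Cfl1, still below the 4 genes without control PolII. The PolII counts of the 8 genes stayed within 1.5 times in all their alternatives. The shortened lists, also the Kap1 KD list cut to the length of the control list, could not change them. The listed promoter peaks ranked 159 or better of 5015 in the control and 344 or better of 12862 under Kap1 KD. Other gene shares could not change them either, since PolII covered 0% or at least 98.9% of each gene. No paired analysis was possible because each group with a list holds 1 library and no value comes from a test. Depth is unknown and limits every absence.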
